A study of Homo sapiens with 6 samples.

Results

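The genes described here are 10 components of the machinery that presents peptides on MHC class I: B2M, HLA-E, TAP1, TAP2, TAPBP, PSMB8, PSMB9, PSMB10, NLRC5 and ERAP1. They were chosen by name, and a gene was taken as measured where the platform's annotation paired at least 1 row of the table (a transcript cluster) with that gene alone. Of the 10 genes, 9 were measured, out of 18417 genes with such a row. HLA-E, the heavy chain of a non-classical class I molecule, had no row under this annotation and is not analysed here. Where a gene had several rows, the one with the highest mean over all arrays stood for it.

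The samples were AGS cells, a human gastric adenocarcinoma line, transfected either with CTNNB1 siRNA, which targets the transcript of beta-catenin, or with a control siRNA that has no intended target. RNA was taken 48 hours after transfection, and 3 arrays per group, called biological replicates in the labels, were hybridised. Both groups therefore went through transfection with an siRNA, and no untransfected cells are analysed here. A well of cells gives 1 value per gene, so more cells that express a gene and more RNA per cell cannot be told apart.

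Class I molecules show fragments of a cell's own proteins to CD8 T cells. The proteasome cuts the proteins, and cells exposed to interferon replace its catalytic subunits with the immunoproteasome subunits encoded by PSMB8, PSMB9 and PSMB10. The TAP1 and TAP2 transporter moves the peptides into the endoplasmic reticulum, ERAP1 trims them there, tapasin (TAPBP) holds the empty class I molecule at the transporter, and B2M is the light chain of the finished complex. NLRC5 is a transcriptional activator of class I genes, and interferon acts on many of the same promoters through the interferon-stimulated response element.

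The sequences below show that element in the promoters where it was found, those of 5 of the 8 genes searched. Other elements were searched as well, and this one was found in the most genes. They were read from RefSeq on GRCh38.p14, in windows of 250 bases upstream of annotated starts, which were at hand for 8 of the 10 genes (11 windows, without HLA-E and NLRC5). The letters searched were GAAA, any 2 bases and GAAA again, on both strands. They were found in 5 of the 11 windows, 1 in each of 5 genes, against 3.02% of the 35116 promoter windows of the same length. Capitals mark the matched letters, and overlapping matches form 1 run.
B2M, chr15:44711358-44711403, plus strand: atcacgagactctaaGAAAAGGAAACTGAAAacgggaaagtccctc
TAP1, chr6:32853808-32853853, minus strand: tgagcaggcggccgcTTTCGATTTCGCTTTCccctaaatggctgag
TAP2, chr6:32838773-32838812, minus strand: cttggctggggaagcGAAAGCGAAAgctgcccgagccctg
TAPBP, chr6:33314079-33314113, minus strand: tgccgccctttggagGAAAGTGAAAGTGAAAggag
PSMB10, chr16:67936851-67936886, minus strand: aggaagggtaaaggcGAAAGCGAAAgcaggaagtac
The first matched base lay 144 bases upstream of the start in B2M, 134 in TAP1, 58 in TAP2, 20 in TAPBP and 21 in PSMB10.

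PSMB8, PSMB9 and ERAP1 had no such letters in their windows. PSMB9 is read from the plus strand, and its window covers chr6:32853942-32854191. The TAP1 run printed above lies further upstream of PSMB9, outside that window, so the search for PSMB9 did not cover it. Letters of an NF-kB site, searched on both strands as GGG, any 2 bases and TTTCC, were in 3 of the 11, those of B2M, TAP1 and TAPBP, and in 1.73% of all. Letters of the TCF/LEF site through which beta-catenin acts on DNA (CTTTGA followed by either A or T, on both strands) were in 1 of the 11, the second TAP1 start, and in 5.94% of all. These matches describe letters in the windows, and binding was not measured.

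The silenced gene was checked first. CTNNB1 was 10.27, 10.78 and 10.58 on the log2 scale in CTNNB1 siRNA cells, against 11.92, 11.76 and 11.75 in control siRNA cells. The groups did not overlap, and the log2 difference of -1.27 (SE 0.17) matched the labels on all 6 arrays. CTNNB1 itself had a limma adjusted p of 0.232, so the silenced gene did not pass the threshold of 0.05. Over the whole table, CTNNB1 siRNA replicate 1 was the array least like the rest. Its correlation with them across rows was 0.962 to 0.965, while the highest correlation that any other array reached was 0.986 to 0.988. It was the highest of the 6 arrays for 24.6% of genes and the lowest for 31.4%. Each class I gene is therefore given with and without it.

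None of the 9 class I genes passed the threshold, an adjusted p of 0.05 in limma over all 19460 rows tested, where 0.00514% of rows were called, that is, 1 row. At an unadjusted p under 0.05, 1 of the 9 was higher in CTNNB1 siRNA cells, B2M, against 3.07% of all genes. All 9 had a log2 difference above 0, as did 49.1% of all genes, and their median was 0.35 against -0.005 over all genes. For 4 of the 9 (B2M, TAP1, TAP2 and PSMB9) every CTNNB1 siRNA array lay above every control array, against 6.86% of all genes. With 3 arrays against 3, the 2-sided exact permutation p cannot fall below 0.1, the value that these 4 reached. CTNNB1 siRNA replicate 1 was the highest array for 7 of the 9. Without it the median was 0.17, against -0.002 over all genes, and 8 of the 9 still differed above 0, against 49.5% of all genes.

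B2M, the light chain that all classical class I molecules need to reach the surface, was 10.81, 10.14 and 9.86 on the log2 scale in CTNNB1 siRNA cells, against 9.58, 9.77 and 9.67 in control siRNA cells. All CTNNB1 siRNA arrays were above the controls, replicate 3 by the least. The means were 10.27 ± 0.49 and 9.68 ± 0.0987 (SD, n = 3 each), a log2 difference of 0.60 (SE 0.24, 95% confidence interval 0.04 to 1.15), or 1.51-fold. The limma adjusted p was 0.816. Without CTNNB1 siRNA replicate 1 the difference was 0.33 (interval -0.01 to 0.67).

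The immunoproteasome genes had the widest spread between arrays. Their control siRNA means were 5.81 for PSMB8, 5.88 for PSMB9 and 5.64 for PSMB10. All lay below 6.023, the median of the means of the tested rows. PSMB8, which encodes the subunit that takes the place of PSMB5, was 8.86, 5.67 and 6.03 in CTNNB1 siRNA cells, against 5.91, 5.65 and 5.88 in control siRNA cells. CTNNB1 siRNA replicate 1 was 3.05 above the control mean on the log2 scale, while replicates 2 and 3 overlapped the controls or lay close to them. Only 3 of the 18417 genes, PSMB8 included, were this far above their control mean on that array. The log2 difference was 1.04 (SE 0.73, 95% confidence interval -0.63 to 2.72; limma adjusted p = 0.816). It was 0.0411 without CTNNB1 siRNA replicate 1 (interval -0.33 to 0.41) and 1.63 without CTNNB1 siRNA replicate 2.

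PSMB9, whose product takes the place of PSMB6, was 7.18, 6.22 and 6.04 in CTNNB1 siRNA cells, against 5.73, 5.99 and 5.92 in control siRNA cells. The groups did not overlap, and replicate 1 lay furthest from the controls. The log2 difference was 0.60 (SE 0.28, 95% confidence interval -0.06 to 1.25; limma adjusted p = 0.816), and 0.25 without CTNNB1 siRNA replicate 1. PSMB10, whose product takes the place of PSMB7, was 6.74, 5.72 and 5.90 in CTNNB1 siRNA cells, against 6.04, 5.35 and 5.52 in control siRNA cells. These groups overlapped, since control siRNA replicate 1 exceeded CTNNB1 siRNA replicates 2 and 3. The log2 difference of PSMB10 was 0.48 (SE 0.30; limma adjusted p = 0.816), and 0.17 without CTNNB1 siRNA replicate 1.

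**Figure D1:**
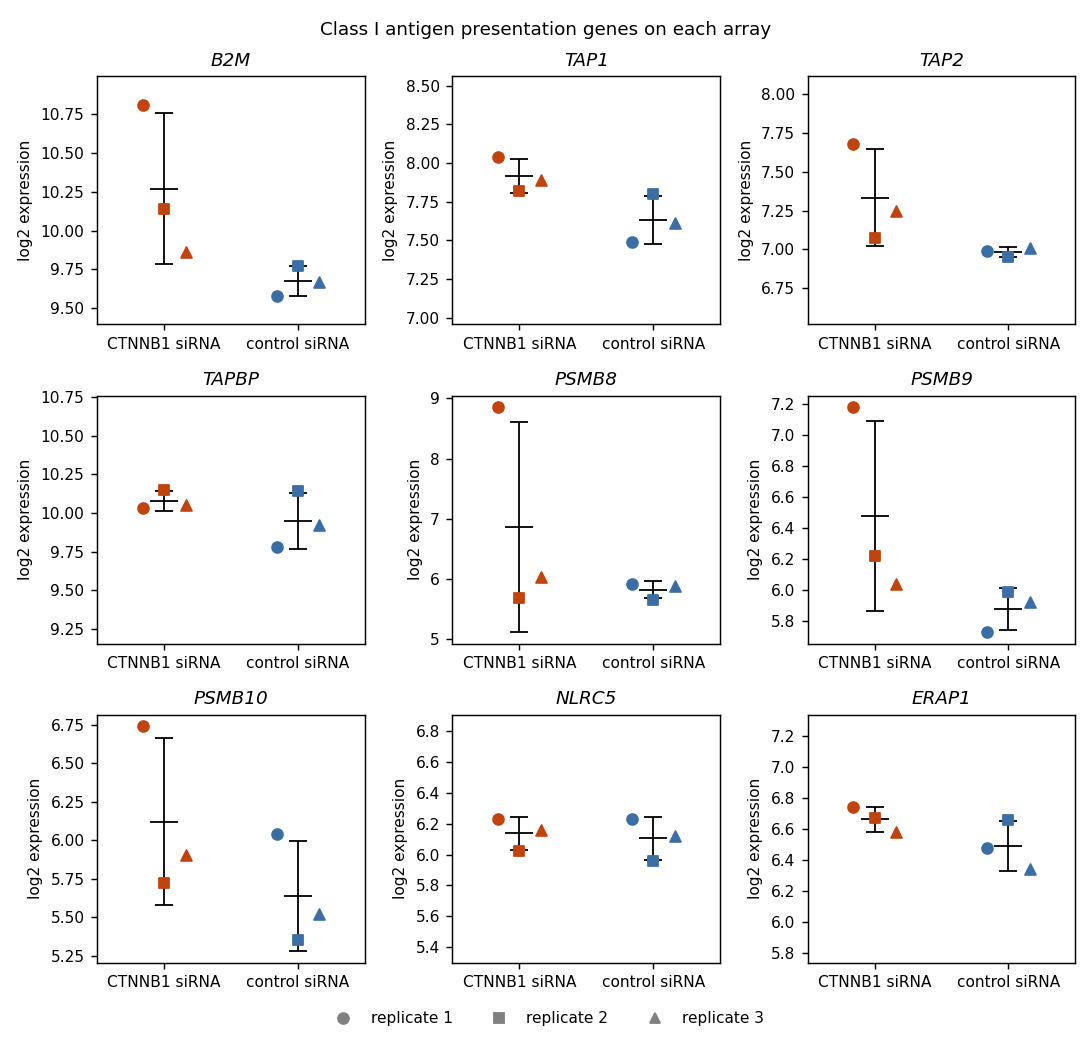
Log2 expression (vertical axis, a separate scale for each gene) of the 9 measured class I genes on each array, with CTNNB1 siRNA on the left and control siRNA on the right of each panel. Symbols mark the replicate number, and bars give the mean and SD of 3 arrays. PSMB8 is at 8.86 on CTNNB1 siRNA replicate 1 and between 5.65 and 6.03 on the other 5 arrays.

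Among the peptide transporter genes, TAP1 was 8.04, 7.82 and 7.89 in CTNNB1 siRNA cells, against 7.49, 7.80 and 7.61 in control siRNA cells. The groups were apart, by a margin of 0.02 between CTNNB1 siRNA replicate 2 and control siRNA replicate 2. TAP1 differed by 0.28 on the log2 scale (SE 0.15, 95% confidence interval -0.05 to 0.62; limma adjusted p = 0.816). The difference was 0.22 without CTNNB1 siRNA replicate 1, and it lay between 0.21 and 0.37 in all fits without 1 array. TAP1 and PSMB9 are neighbours on chromosome 6 and are read in opposite directions, and without that array TAP1 and PSMB9 differed by 0.22 and 0.25.

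TAP2, whose product pairs with that of TAP1, was 7.68, 7.07 and 7.25 in CTNNB1 siRNA cells, against 6.99, 6.95 and 7.01 in control siRNA cells. The groups did not overlap, and the controls lay within a narrow range. The log2 difference was 0.35 (SE 0.18; limma adjusted p = 0.816), and 0.17 without CTNNB1 siRNA replicate 1. The 3 rows paired with TAP2 differed between the groups by 0.24, 0.36 and 0.35. For TAP1, PSMB8 and PSMB9 the 3 rows held identical values, so they add no separate measurement.

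Over all 6 arrays the remaining class I genes differed least. That order rests on CTNNB1 siRNA replicate 1, since without it PSMB8 differed by 0.0411, less than TAPBP and ERAP1. TAPBP, encoding tapasin, was 10.03, 10.15 and 10.05 in CTNNB1 siRNA cells, against 9.78, 10.14 and 9.92 in control siRNA cells, which overlap. Its log2 difference was 0.13 (SE 0.15, 95% confidence interval -0.21 to 0.46). It was 0.15 without CTNNB1 siRNA replicate 1, 0.0437 without control siRNA replicate 1 or 0.22 without control siRNA replicate 2. Its 3 rows gave 0.13, 0.15 and 0.13. ERAP1, the peptide-trimming aminopeptidase gene, was 6.74, 6.67 and 6.58 in CTNNB1 siRNA cells, against 6.48, 6.66 and 6.34 in control siRNA cells, which overlap as well. It differed by 0.16 on the log2 scale (SE 0.14, 95% confidence interval -0.17 to 0.50), by 0.13 without CTNNB1 siRNA replicate 1, by 0.25 without control siRNA replicate 2 and by 0.086 without control siRNA replicate 3.

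NLRC5, the activator gene, was 6.23, 6.02 and 6.16 in CTNNB1 siRNA cells, against 6.23, 5.96 and 6.12 in control siRNA cells. No CTNNB1 siRNA array stood out, replicate 1 included. The log2 difference was 0.0319 (SE 0.14), with a 95% confidence interval of -0.30 to 0.36. NLRC5 was also the gene whose sign changed when 1 array was left out, at -0.0137 without CTNNB1 siRNA replicate 1 and -0.0391 without control siRNA replicate 2.

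**Figure D2:**
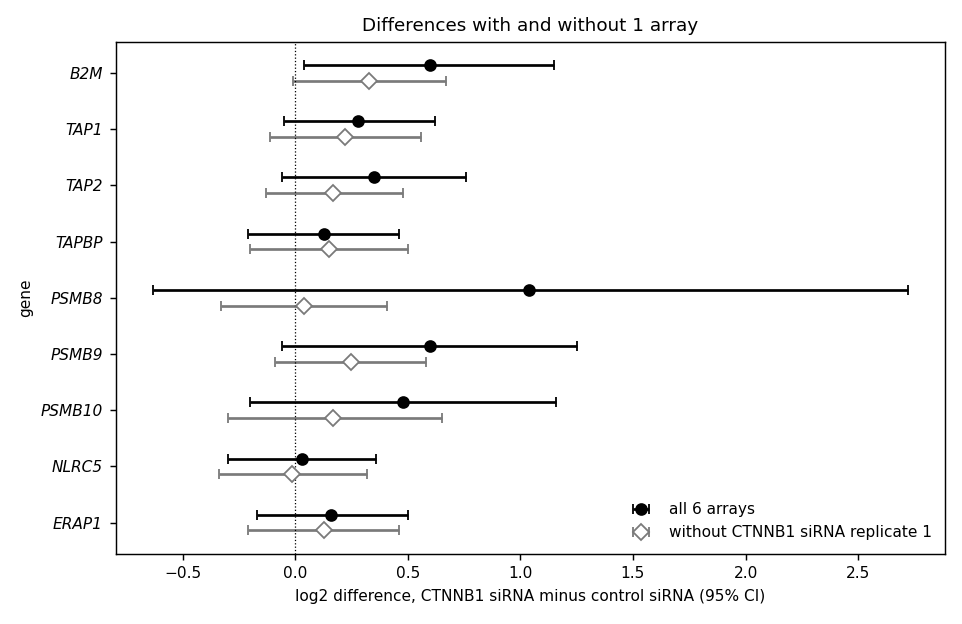
Log2 difference of each gene (horizontal axis, CTNNB1 siRNA minus control siRNA) with its 95% confidence interval from limma, for all 6 arrays (filled circles) and without CTNNB1 siRNA replicate 1 (open diamonds). PSMB8 moves to 0.0411 from its value of 1.04 over all arrays, while TAP1, TAPBP, ERAP1 and NLRC5 shift by less than 0.1.

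Averaged over the 9 genes, the log2 distance from the control mean was 0.90, 0.15 and 0.18 on CTNNB1 siRNA replicates 1 to 3, and 0.01, 0.01 and -0.02 on control siRNA replicates 1 to 3. All 9 genes were above their control mean on CTNNB1 siRNA replicates 1 and 3, and 7 on replicate 2, against 4, 5 and 4 on the control arrays. Over all genes the median distance was -0.037, -0.014 and 0.012 on the CTNNB1 siRNA arrays. Genes at least as far above their control mean as B2M on CTNNB1 siRNA replicate 1 made up 2.33% of all genes. The corresponding share was 1.43% for PSMB9, 2.54% for PSMB10, 7.66% for TAP2 and 15.8% for TAP1. It was 24.3% for ERAP1, 33.4% for NLRC5 and 37.3% for TAPBP.

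The constitutive proteasome genes were set beside their immunoproteasome counterparts. PSMB5, the chymotrypsin-like subunit gene, was 9.15, 9.31 and 9.45 in CTNNB1 siRNA cells, against 9.65, 9.57 and 9.53 in control siRNA cells. All CTNNB1 siRNA arrays were below the controls, as for 6.89% of all genes, and PSMB5 differed by -0.28 on the log2 scale (SE 0.14; limma adjusted p = 0.816). PSMB6 differed by -0.29 (SE 0.23) and PSMB7 by 0.21 (SE 0.32), and their groups overlapped.

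The ratio of each pair was then followed across arrays, as the log2 ratio less its control mean. For PSMB8 over PSMB5 this was 3.48, 0.13 and 0.35 in CTNNB1 siRNA cells, against 0.03, -0.15 and 0.12 in control siRNA cells. The groups were apart by the margin between 0.13 and 0.12 (2-sided exact permutation p = 0.1, the smallest possible with n = 3 each). PSMB8 alone overlapped (exact permutation p = 0.4), while PSMB5 alone did not. These ratios were chosen after the values were seen, and the share of other gene pairs that lie apart was not computed. The difference was 1.32, and 0.24 without CTNNB1 siRNA replicate 1. For PSMB9 over PSMB6 the difference was 0.89, and 0.35 without that array, with overlapping groups (exact permutation p = 0.3). For PSMB10 over PSMB7 it was 0.27, and 0.35 without that array, and the groups overlapped too (exact permutation p = 0.2). On CTNNB1 siRNA replicate 1 PSMB10 and PSMB7 were both higher, by 1.11 and 1.00, so their ratio was 0.11 there.

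Other proteasome genes also lay far from their control means on CTNNB1 siRNA replicate 1, in both directions, although none as far above them as PSMB8. Over 17 genes of constitutive catalytic subunits, other core subunits and assembly factors, the log2 distance from the control mean ran from -2.29 to 1.74 on that array. It was at least 1 for 6 genes and at most -1 for 3. On CTNNB1 siRNA replicates 2 and 3 the same 17 genes lay between -0.44 and 0.04, and on the controls between -0.33 and 0.36. PSMA2, a core subunit gene, was 8.44 on CTNNB1 siRNA replicate 1 against 10.52 to 10.75 on the other arrays, and POMP, the assembly chaperone gene, was 10.13 against 11.52 to 11.65. The part of this array in the class I result was not tested beyond leaving it out.

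**Figure D3:**
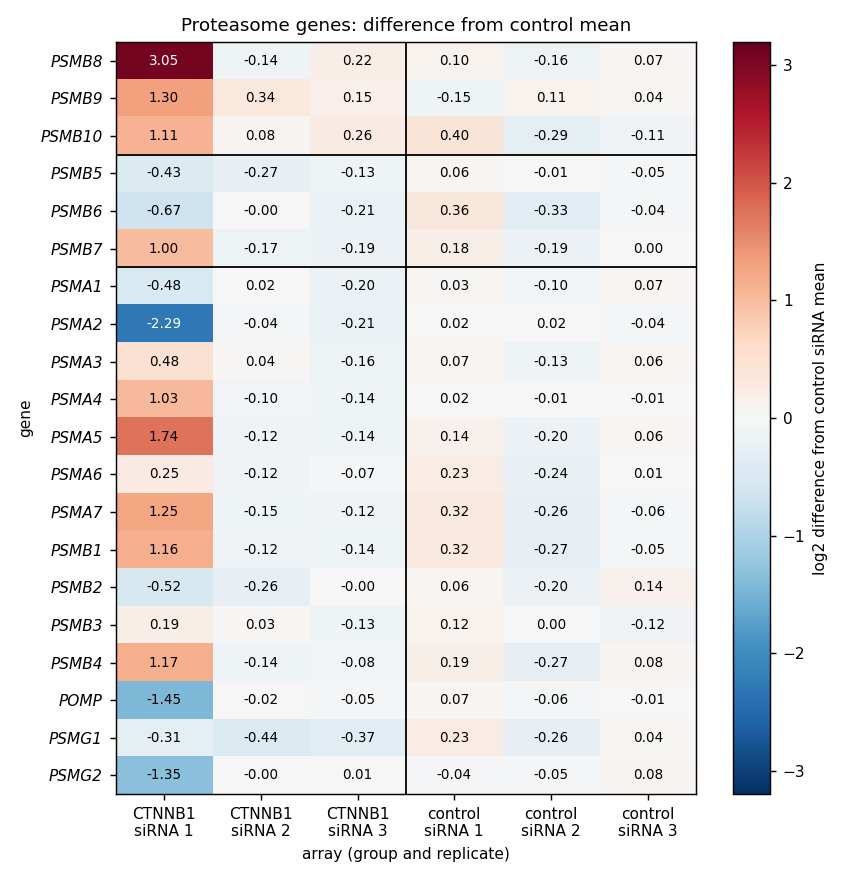
Log2 distance from the control siRNA mean (colour and printed value) of the 3 immunoproteasome genes (top block), the 3 constitutive catalytic subunit genes (middle) and 14 other core subunit and assembly genes (bottom) on each array, with CTNNB1 siRNA arrays on the left. On CTNNB1 siRNA replicate 1 values run from -2.29 for PSMA2 to 3.05 for PSMB8, and on the other 5 arrays from -0.44 to 0.40.

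Genes of the wider pathway were described from 11 lists, with 83 genes measured. None of the 83 passed the limma threshold, and 8 had an unadjusted p under 0.05, against 5.67% of all genes. Class I-like genes had 6 of 11 listed members measured, 5 higher and 1 lower, with a median log2 difference of 0.0869. The classical heavy chain genes were not among those measured. FCGRT, the neonatal Fc receptor heavy chain gene, which also pairs with B2M, differed by 0.52 (SE 0.27), and by 0.20 without CTNNB1 siRNA replicate 1. Peptide loading and endoplasmic reticulum chaperone genes had a median of -0.13 over 6 measured, 2 higher and 4 lower. The chaperone genes CALR and CANX, whose products help class I heavy chains fold, differed by -0.29 (SE 0.21) and -0.24 (SE 0.19). ERAP2, the relative of ERAP1, differed by 0.30 (SE 0.18) and TAPBPL, the tapasin-related editor gene, by 0.17 (SE 0.14).

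Proteasome activator genes had a median of -0.26 over 4, 1 higher and 3 lower. PSME1 and PSME2, which encode the interferon-responsive activator, differed by 0.0474 (SE 0.13) and -0.17 (SE 0.28). PSME2 was 8.21 on CTNNB1 siRNA replicate 1, below the 9.22 and 9.30 of replicates 2 and 3, against 9.00 to 9.19 in control siRNA cells. PSME2 thus lay on the opposite side of the controls from PSMB8 and PSMB9 on that array. Of the 5 cytosolic peptidase genes measured, 3 were higher and 2 lower, and BLMH had the smallest p, with a difference of -0.39 (SE 0.14; limma adjusted p = 0.816).

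Class I transcription factor genes had a median of -0.0643 over 10 measured, 4 higher and 6 lower. IRF1, an interferon-induced activator of class I promoters, was 7.77, 6.26 and 6.39 in CTNNB1 siRNA cells, against 6.13, 6.26 and 6.14 in control siRNA cells. Its pattern resembled that of PSMB8: the log2 difference was 0.63 (SE 0.37), and 0.15 without CTNNB1 siRNA replicate 1. RFX5, a subunit of the factor that binds class I promoters together with NLRC5, differed by -0.11 (SE 0.16). NFYC, a subunit of the CCAAT-binding factor, differed by -0.42 (SE 0.18).

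Interferon receptor and signalling genes had 11 of 12 measured members higher and 1 lower, against 49.1% of all genes higher, with a median log2 difference of 0.20, and of 0.25 without CTNNB1 siRNA replicate 1. At an unadjusted p under 0.05 were 2 of the 12, against 5.67% of all genes. They were IL10RB, a receptor chain shared by interferon lambda and interleukin-10, at 0.54 (SE 0.17), and PTPN2, a phosphatase gene that restrains JAK signalling, at -0.49 (SE 0.20). IL10RB was 8.81, 8.58 and 8.59 in CTNNB1 siRNA cells, against 7.85, 8.20 and 8.32 in control siRNA cells. Unlike PSMB8, it was higher on all CTNNB1 siRNA arrays by a similar margin. IFNGR1, the interferon gamma receptor chain, differed by 0.62 (SE 0.27), and by 0.29 without CTNNB1 siRNA replicate 1.

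Interferon ligand genes had a median of 0.13 over 7 measured, 5 higher and 2 lower, and 4 of the 7 were among the dimmest 40% of rows, where the authors' processing compresses differences. IFNB1 was 2.75, 2.37 and 2.60 in CTNNB1 siRNA cells, against 2.66, 3.24 and 3.22 in control siRNA cells. IFNG was 2.96 to 3.47 in CTNNB1 siRNA cells, against 2.52 to 3.37 in control siRNA cells. Both lay far below 5.362, the mean under which a row counted as dim. IFNL1, IFNL2 and IFNL3 were not dim, and their groups overlapped. They differed by 0.0831 (SE 0.34), 0.36 (SE 0.20) and 0.31 (SE 0.18). On CTNNB1 siRNA replicate 1 IFNL1 was 6.12, against 6.58 to 7.07 in control siRNA cells. IFNL2 was 6.00 on that array, against 5.88 to 6.05, and IFNL3 was 7.21, against 7.24 to 7.26. Without CTNNB1 siRNA replicate 1 the differences were 0.51 for IFNL1, 0.53 for IFNL2 and 0.49 for IFNL3. The median of the interferon ligand genes was then 0.30. Genes of the MHC class II pathway, which presents peptides to CD4 T cells, had a median of 0.0216 over 8 measured. Of these 8, 4 were higher and 4 lower, and 5 were dim. At an unadjusted p under 0.05 in limma were 2 of the 8, both dim, against 5.67% of all genes. The cathepsin gene CTSS differed by 0.61 (SE 0.18), with groups apart, as for 6.86% of all genes. HLA-DQB1 differed by 0.72 (SE 0.31), with overlapping groups. Without CTNNB1 siRNA replicate 1 they differed by 0.45 and 1.04. Genes of checkpoint ligands and of ligands of natural killer receptors had a median of 0.13 over 8, 5 higher and 3 lower. NECTIN2, a ligand of such receptors, differed by 0.44 (SE 0.16).

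**Figure D4:**
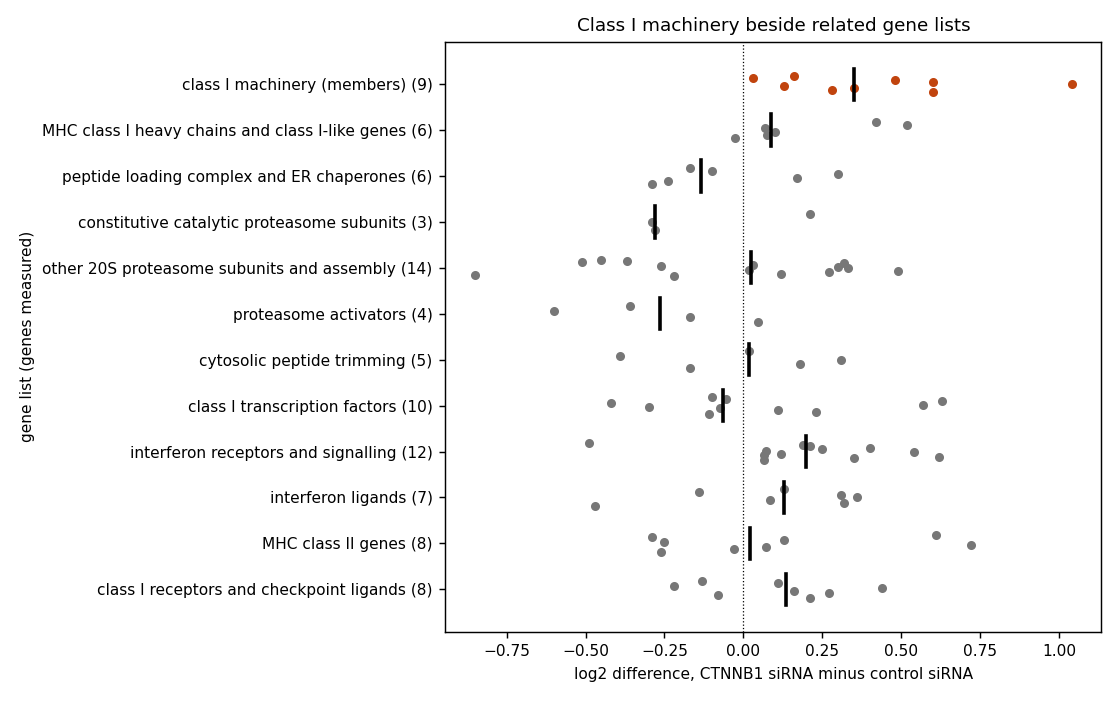
Log2 difference (horizontal axis, CTNNB1 siRNA minus control siRNA) of each gene in the class I machinery (top row) and in 11 related lists, with 1 point per gene, a black bar at the list's median and the number of genes measured in brackets. The class I genes all lie above 0, and the other lists have members on both sides of 0.

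The labelled cell type was checked against its markers. All 8 epithelial markers were measured, 7 higher and 1 lower, with a median log2 difference of 0.41, and of 0.25 without CTNNB1 siRNA replicate 1. None passed the limma threshold, and 2 of the 8 had an unadjusted p under 0.05, against 5.67% of all genes. These were the keratin gene KRT19, at 0.96 (SE 0.36), and the tight junction gene CLDN4, at 0.67 (SE 0.24). Every CTNNB1 siRNA array lay above every control array for KRT19, CLDN4 and ELF3, against 6.86% of all genes. ELF3 differed by 0.33 (SE 0.15). Without CTNNB1 siRNA replicate 1 the differences were 0.54 for KRT19 and 0.42 for CLDN4. The summed linear level of the 8 was 15426 to 23101 in CTNNB1 siRNA cells, against 12650 to 15259 in control siRNA cells, and it was highest on CTNNB1 siRNA replicate 1. The junction genes CDH1 and CLDN7 were at 6.40 and 11.02 on that array, the lowest of the 6 arrays for each. The part of these markers in the class I result was not tested. EPCAM, the epithelial adhesion molecule gene, was 11.41 to 11.66 in CTNNB1 siRNA cells, against 11.34 to 11.43 in control siRNA cells. Of 10 leukocyte markers 9 were measured, 4 higher and 5 lower, with none at an adjusted or unadjusted p under 0.05 in limma. Their summed linear level was 5765 to 8539 in CTNNB1 siRNA cells, against 8344 to 9389 in control siRNA cells, nearly all of it from LYZ, a lysozyme gene that gastric epithelium also expresses. PTPRC, the pan-leukocyte gene that encodes CD45, was 2.60 to 2.79 in CTNNB1 siRNA cells, against 2.67 to 2.70 in control siRNA cells, a dim level throughout.

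The genes whose pattern was most like the class I mean over the 6 arrays were RAB11FIP4, MUS81, CLIC3, SLC25A1, S100A14 and TNIP1, by Pearson's r among 9250 genes of at least median level. Their r was 0.996 to 0.999, a description over 6 arrays that share CTNNB1 siRNA replicate 1 as their highest value. CLIC3, a chloride intracellular channel gene, was 8.29, 6.56 and 6.46 in CTNNB1 siRNA cells, against 6.12, 6.01 and 6.03 in control siRNA cells. TNIP1, which encodes an inhibitor of NF-kB signalling, was 8.04, 7.17 and 7.19 in CTNNB1 siRNA cells, against 6.92, 6.98 and 6.86 in control siRNA cells.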

How the data were processed

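The authors deposited log2 values, 1 for each transcript cluster of an Affymetrix Human Gene 1.0 ST array. The submitters' processing notes name RMA and Affymetrix Expression Console 1.1. RMA equalises the distributions of the arrays and compresses differences of dim rows. Its genome build is not given in the sources used here. From 500 ng of RNA per sample, 6 arrays were made, and their number limits the precision.

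Of 33297 rows, 19460 were paired with 1 gene symbol and tested; 1754 had several symbols and 12083 none listed. For 19429 rows the symbol was looked up again through the gene identifier, whether or not it changed. Differences are CTNNB1 siRNA minus control siRNA, from limma 3.58.1 in R 4.3.3 (lmFit, eBayes), 2-sided, adjusted by Benjamini-Hochberg over these rows. The procedure was tested on simulated data. No simulated array stood apart from the rest, so that test does not cover an array like CTNNB1 siRNA replicate 1. Nothing says that replicates came from separate passages, so p-values cover only the spread between these samples, which may be technical.

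The genes and lists were chosen with earlier results of these data known. Named genes were the 9 measured, up to 4 of each list with the smallest p, 14 fixed genes and the 6 most alike in pattern; PSMA2 and POMP also fall under the list part. Ratios of paired proteasome genes and the values of IFNL1 were added after the values were seen.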

Additional observations from a re-analysis of the deposited data

How the results depend on the processing

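None of the 9 class I genes passed the limma threshold in any alternative run. The count of rows called was 1, and 1 with an intensity trend in the variance prior. It was 13 with array weights, and 0 with all rows of the table tested, with arrays centred on their medians, with the dimmest 40% of rows left out and with the replicate block. At an unadjusted p under 0.05 limma gave 1569, 1163, 670 and 1123 rows in those 4 fits. When any 1 array was left out the count was 0 to 10, and 10 only without CTNNB1 siRNA replicate 1, with 695 to 1428 rows at an unadjusted p under 0.05. The median log2 difference of the class I genes, 0.35, ranged over 0.17 to 0.48 in fits without 1 array and 0.21 with array weights, and it was above 0 in every alternative. The log2 difference of NLRC5, 0.0319, ranged over -0.0391 to 0.10 in the same fits, and no other class I gene changed sign. With array weights PSMB8 differed by 0.21. Weights were 0.2262 for CTNNB1 siRNA replicate 1 and 0.7203 to 1.868 for the other arrays. Same-numbered arrays of the groups had correlated deviations of 0.0922, 0.12 and 0.098, each array's best match across groups. The labels do not say that a number marks a shared day, so whether same-numbered samples share more than a number is not known. Each number occurs once per group, so the replicate block cannot change a log2 difference. Neither can the intensity trend, testing all rows or leaving out the dimmest rows. The median of 0.35 in those fits was therefore fixed in advance. The causes of the changes across the fits were not tested.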
